A study of Caenorhabditis elegans with 21 samples.

Results

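The ceh genes (for *Caenorhabditis elegans* homeobox) are the numbered homeobox genes of the worm. Here they were taken as the rows of the count table whose name is ceh followed by a number, with *ceh-13*, a gene of the Hox cluster, left out. This rule uses names and no measured value, and it gave 45 of the 45461 genes listed. A homeobox encodes the homeodomain, a DNA-binding fold whose recognition helix lies in the major groove. Homeodomain proteins act as transcription factors, and in the worm they are best known for specifying neurons, pharyngeal cells, muscle and epidermis, many of them in few cells and some, such as the CUT class, across all neurons. The classes differ in what accompanies the homeodomain: SIX-class proteins carry a SIX-type domain, POU proteins a POU-specific domain, LIM proteins zinc-binding LIM domains and CUT proteins 1 or more cut domains, while PBC proteins pair with Hox proteins on DNA.

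The 45 genes were measured by poly(A) RNA-seq of whole animals in 3 libraries of strain *hpl-2*(*tm1489*) and 2 libraries of wild-type N2 Bristol, all raised at 20°C. The *tm1489* allele is a deletion in *hpl-2*, the gene for a homolog of heterochromatin protein 1. Proteins of this family bind histone H3 methylated at lysine 9. The paper states that HPL-2 association in the worm does not depend on this mark. The strains were compared to ask whether loss of HPL-2 repeats the transcriptome changes seen on deletion of *tdp-1*, the worm ortholog of the TDP-43 gene. The methods list all 5 libraries as L4 animals, but in the sample labels only the mutant is L4 and N2 is young adult. Genotype and any difference in stage therefore cannot be told apart in these libraries.

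Library totals were 95252804 to 114718047 counts in *hpl-2*(*tm1489*) and 66490671 and 80724052 counts in N2. Levels are given as CPM (counts per 1000000 of a library size scaled by TMM). The quasi-likelihood test of edgeR was run on the 17498 genes that passed its low-count filter, with an adjusted p (Benjamini-Hochberg) below 0.1 as the threshold for a call. The *hpl-2* gene itself was at 26.7, 30.4 and 29.9 CPM in the 3 *hpl-2*(*tm1489*) libraries and at 38.9 and 38.6 CPM in the N2 libraries, lower in every mutant library but without a call (log2 fold change -0.42, SE 0.26, adjusted p = 0.192 by edgeR), and a single count per gene does not separate the deleted part of the transcript from the rest. Stage markers differed between the strains: all 14 oocyte and eggshell genes and all 3 adult collagen genes were higher in *hpl-2*(*tm1489*), and 10 of 12 molting-cycle genes and all 6 vitellogenin genes were lower. The oocyte, eggshell and adult collagen genes were thus higher in the strain labeled L4. The vitellogenin genes and 10 of 12 molting-cycle genes were higher in the strain labeled young adult. Of all genes tested, 33.9% were higher in *hpl-2*(*tm1489*) and 27.6% were lower. The part of stage in these differences was not tested. The summed level of the oocyte and eggshell genes was 1370 to 4580 CPM in *hpl-2*(*tm1489*) and 544 to 750 CPM in N2, and replicate 2 of the mutant held the lowest of its 3 values.

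Of the 45 ceh genes, 38 passed the filter and were tested. Among these, 7 were higher in *hpl-2*(*tm1489*), 14 were lower and 17 had no call, so that 55.3% of the tested ceh genes changed. By direction, 18.4% of the tested ceh genes were higher and 36.8% were lower. Of all genes tested, 61.5% changed, with 33.9% higher and 27.6% lower. The share of ceh genes that changed was thus near that of all genes, and slightly below it. The median log2 fold change was -0.41 over the 38 ceh genes and 0.16 over all genes tested, and without N2 replicate 1 it was 0.13 over the 41 ceh genes then tested and 0.25 over all genes. The 3 mutant libraries did not overlap the 2 N2 libraries for 25 of the 38 ceh genes (65.8%), against 72% of all genes tested. These counts describe the genes that passed the filter and not all 45. The filter asks for as many libraries at its level as the smaller group holds. The mutant libraries let in 6 genes with under 2 N2 libraries at that level: *ceh-7*, *ceh-17* and *ceh-40* with none, and *ceh-16*, *ceh-49* and *ceh-52* with 1. *ceh-23* had only 1 mutant library at that level and passed through N2. The direction of a change in such a gene is not independent of the filter.

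**Figure D1:**
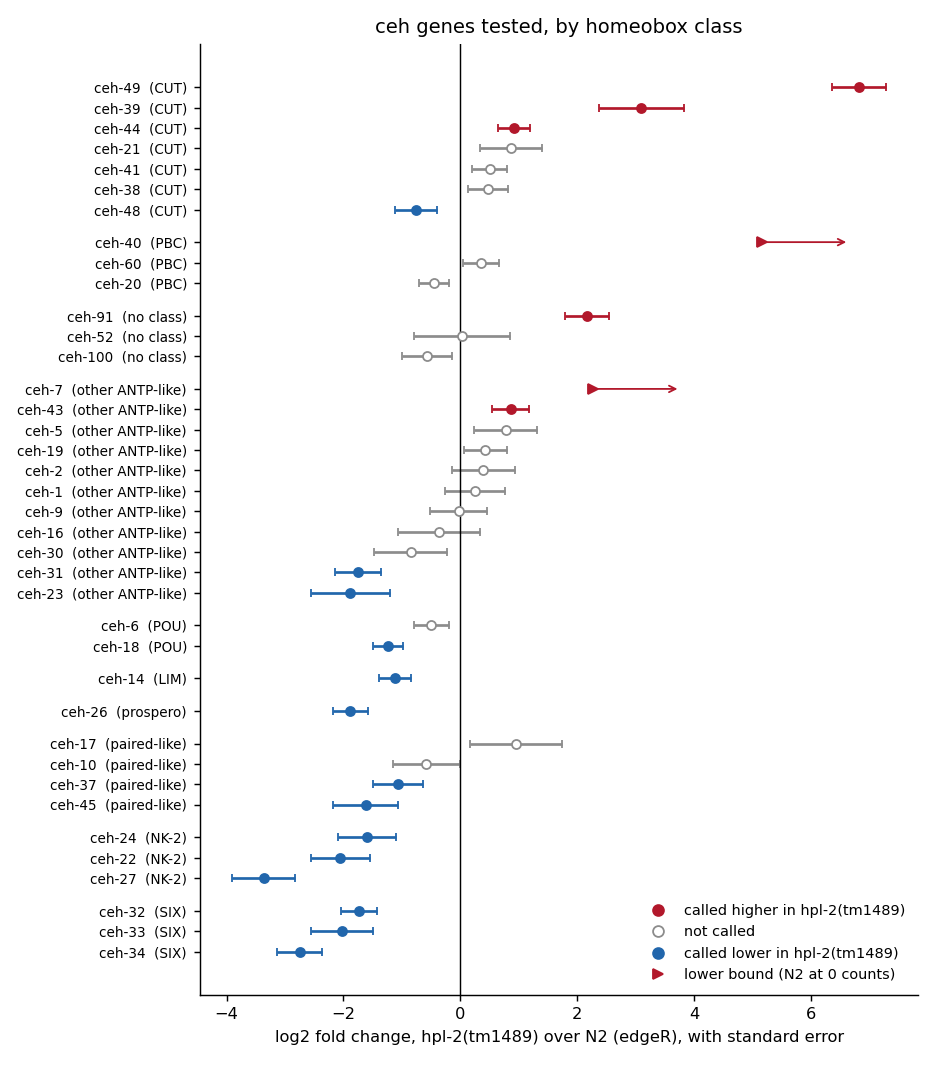
The log2 fold change of *hpl-2*(*tm1489*) over N2 is plotted for the 38 ceh genes tested, 1 row per gene grouped by homeobox class, with the standard error from edgeR's fit as bars. Filled red points are the 7 genes called higher, filled blue points the 14 called lower and open grey points the 17 not called; *ceh-40* and *ceh-7*, at 0 counts in N2, are drawn as arrows that start at their lower bound of 35.9-fold and 4.85-fold. The tested SIX-class and NK-2 genes all lie left of 0, and 6 of the 7 CUT genes lie right of it.

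The CUT class held the most genes that were higher. All 7 of its genes were tested, and 3 were higher (*ceh-49*, *ceh-39* and *ceh-44*), 1 was lower (*ceh-48*) and 3 had no call. In this small class 42.9% were thus higher and 57.1% called, near the 33.9% and 61.5% of all genes tested. The onecut gene *ceh-49* had the largest fitted change among ceh genes with counts in both strains, and its levels in the libraries were 13.1, 11.2 and 18.5 CPM in *hpl-2*(*tm1489*) and 0.149 and 0.0929 CPM in N2. As raw counts these are 1668, 1271 and 1689 reads in the mutant and 12 and 5 reads in N2, so the lowest mutant library lay far above the higher N2 library. The fitted difference was 6.82 on the log2 scale (SE 0.46), 113-fold, with an adjusted p of 2.12e-05 by edgeR. Only 1 N2 library reached the filter's level, so *ceh-49* passed the filter through the mutant libraries. The gene *ceh-39*, an X-signal element that takes part in counting X chromosomes in sex determination, was at 9.39, 2.07 and 14.3 CPM in *hpl-2*(*tm1489*) and at 0.733 and 1.28 CPM in N2. Its groups did not overlap, but replicate 2 of the mutant lay much nearer to N2 than replicates 1 and 3 did, and the log2 fold change of 3.10 (SE 0.73, adjusted p = 0.00546 by edgeR) became 3.47 (adjusted p = 0.000334) without that library and 2.50 (adjusted p = 0.0129) without mutant replicate 3. With any 1 of the 5 libraries left out it lay between 2.50 and 3.56 and was called.

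The remaining CUT genes differed by less. The worm CUX homolog *ceh-44*, a pan-neuronal CUT gene, was at 87.5, 86.3 and 106 CPM in *hpl-2*(*tm1489*) and at 57.0 and 41.6 CPM in N2, without overlap, a log2 fold change of 0.92 (SE 0.28, adjusted p = 0.0187 by edgeR). This call was lost without N2 replicate 2, with a log2 fold change of 0.72 and an adjusted p of 0.174. The onecut gene *ceh-48*, also expressed throughout the nervous system, was the only CUT gene called lower. It was at 2.36, 2.73 and 2.26 CPM in *hpl-2*(*tm1489*) and at 5.61 and 2.68 CPM in N2, so that the strains overlapped, and its call (log2 fold change -0.76, SE 0.36, adjusted p = 0.0989 by edgeR) lay at the threshold and was lost when either of mutant replicates 1 and 3 or N2 replicate 1 was left out, with adjusted p values of 0.206, 0.226 and 0.818, and under scaling by library size alone (adjusted p = 0.326). The broadly expressed *ceh-38* was at 61.9, 36.1 and 73.7 CPM in *hpl-2*(*tm1489*) and at 45.7 and 37.1 CPM in N2, with overlap and no call (log2 fold change 0.47, SE 0.34). The last 2 onecut genes, *ceh-21* and *ceh-41*, had no call either, and their levels stand with those of their neighbors on the chromosome, described further on.

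Among the 3 PBC genes, which encode the worm's Extradenticle/Pbx proteins, *ceh-40* was higher and *ceh-20* and *ceh-60* had no call. *ceh-40*, which acts partly redundantly with *ceh-20* in the embryo, had 217, 144 and 187 counts in the *hpl-2*(*tm1489*) libraries and 0 counts in both N2 libraries. In CPM these were 1.70, 1.27 and 2.05 in the mutant. Against a floor of 3 counts per N2 library, the mutant level was at least 35.9-fold higher (adjusted p = 7.83e-05 by edgeR). *ceh-20*, the main Hox cofactor of this class, was at 12.83, 11.97 and 12.58 CPM in *hpl-2*(*tm1489*) and at 18.31 and 15.73 CPM in N2. The mutant libraries all lay below N2, yet the log2 fold change of -0.45 (SE 0.25) did not pass the test (adjusted p = 0.156 by edgeR). *ceh-60*, which acts in the intestine on vitellogenin genes, was at 31.9, 34.9 and 29.6 CPM in *hpl-2*(*tm1489*) and at 31.8 and 18.2 CPM in N2, where N2 replicate 1 lay within the range of the mutant.

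The other 3 genes that were higher were *ceh-91*, *ceh-43* and *ceh-7*. *ceh-91*, placed in none of the classes used here, was at 26.3, 16.6 and 37.6 CPM in *hpl-2*(*tm1489*) and at 6.10 and 5.85 CPM in N2, a log2 fold change of 2.17 (SE 0.38, adjusted p = 0.00118 by edgeR). Its 2 N2 libraries were close together, whereas the mutant libraries spread with replicate 2 lowest, and all 3 lay above N2. *ceh-43* is the worm Distal-less gene, which acts in anterior epidermis and in dopaminergic neurons. It was at 3.83, 4.13 and 3.57 CPM in *hpl-2*(*tm1489*) and at 2.36 and 1.86 CPM in N2, without overlap, a log2 fold change of 0.86 (SE 0.31, adjusted p = 0.0369 by edgeR). The *ceh-43* call was lost without mutant replicate 1 (adjusted p = 0.179), without N2 replicate 2 (adjusted p = 0.171) and under upper quartile scaling (adjusted p = 0.212). *ceh-7* had 23, 39 and 14 counts in *hpl-2*(*tm1489*) and 0 counts in both N2 libraries, at least 4.85-fold higher against the floor (adjusted p = 0.00412 by edgeR), and its low counts leave the size of the difference imprecise.

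Markers that moved with the genes that were higher are given here as values. The summed level of the 14 early-embryo markers was 7.99 to 9.46 CPM in *hpl-2*(*tm1489*) and 5.52 to 5.91 CPM in N2. Of the 14, 5 were tested and 3 of these were higher (*vet-2*, *pes-1* and *end-3*), 1 was lower (*ref-1*), and the defining genes *tbx-35* and *sdz-23* were at 0 counts in every library. *vet-2* had 425, 386 and 427 counts in *hpl-2*(*tm1489*) and 16 and 2 counts in N2, and *pes-1* had 72 to 124 counts in *hpl-2*(*tm1489*) and 0 in both N2 libraries. *pes-1* therefore passed the filter through the mutant libraries alone, so its being higher is no separate result. Most of the N2 sum was *ref-1*, which went the other way, at 4.87 and 5.57 CPM in N2 and 2.74 to 3.01 CPM in *hpl-2*(*tm1489*). The summed levels of the early-embryo and of the oocyte and eggshell markers were thus higher in every mutant library than in either N2 library, as were *ceh-49*, *ceh-39* and *ceh-40*, and the part of the markers in these differences was not tested.

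**Figure D2:**
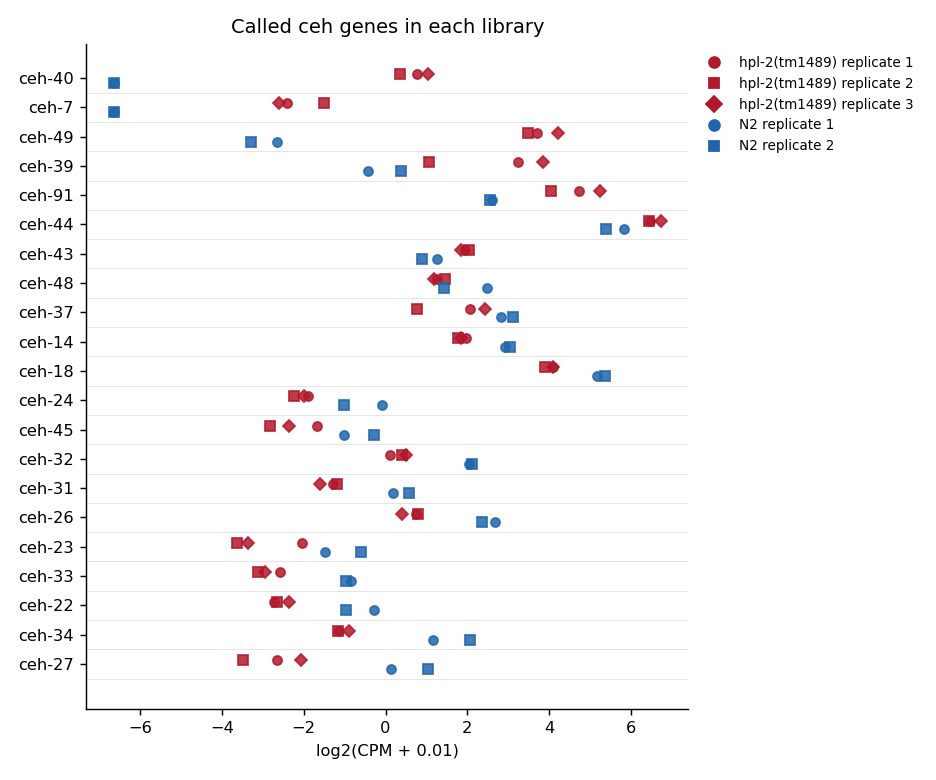
Levels of the 21 changed ceh genes in each library, as log2(CPM + 0.01), with the 3 *hpl-2*(*tm1489*) libraries in red above the 2 N2 libraries in blue in each row and a symbol for each replicate number. Genes are ordered by log2 fold change; *ceh-48* is the only row in which the colors overlap, and mutant replicate 2 (red square) lies nearest to N2 for *ceh-39* and *ceh-91*.

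All 3 SIX-class genes were lower in *hpl-2*(*tm1489*), a class of few genes, where 27.6% of all genes tested were lower. *ceh-34*, which specifies the pharyngeal nervous system, was at 0.446, 0.440 and 0.526 CPM in the mutant and at 2.23 and 4.14 CPM in N2, 6.74-fold lower (log2 fold change -2.75, SE 0.38, adjusted p = 0.000343 by edgeR). The mutant libraries were close together and far below both N2 libraries. Its neighbor *ceh-33* was at 0.156, 0.106 and 0.120 CPM in *hpl-2*(*tm1489*) and at 0.547 and 0.502 CPM in N2, on 11 to 20 counts per mutant library (log2 fold change -2.02, SE 0.53, adjusted p = 0.00989 by edgeR). *ceh-32*, which acts in head morphogenesis, was at 1.07, 1.32 and 1.40 CPM in *hpl-2*(*tm1489*) and at 4.07 and 4.31 CPM in N2, a log2 fold change of -1.73 (SE 0.31, adjusted p = 0.00125 by edgeR). None of the 3 genes overlapped between the strains, as was so for 72% of all genes tested. In whole-animal RNA, fewer cells of a type and less RNA per cell cannot be told apart, which holds for every gene described here.

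The 3 NK-2 genes that were tested were also lower, beside 27.6% of all genes tested. *ceh-27* had the largest fitted fall of any ceh gene, with 0.149, 0.0793 and 0.230 CPM in *hpl-2*(*tm1489*) and 1.08 and 2.04 CPM in N2, 10.2-fold lower (log2 fold change -3.36, SE 0.54, adjusted p = 0.000733 by edgeR). Its groups lay far apart, on 9 to 21 counts in the mutant libraries and 87 and 110 counts in N2. *ceh-22*, the Nkx2-5 relative that activates pharyngeal muscle genes, was at 0.141, 0.150 and 0.186 CPM in *hpl-2*(*tm1489*) and at 0.808 and 0.502 CPM in N2 (log2 fold change -2.05, SE 0.51, adjusted p = 0.00786 by edgeR). *ceh-24*, expressed in the m8 pharyngeal muscle and in vulval muscle, was at 0.258, 0.203 and 0.241 CPM in *hpl-2*(*tm1489*) and at 0.932 and 0.483 CPM in N2, again without overlap. Its log2 fold change was -1.60 (SE 0.50, adjusted p = 0.0214 by edgeR), and without N2 replicate 1 it was -1.03 and no longer called (adjusted p = 0.170). The 2 NK-2 genes not tested, *ceh-28* and *ceh-51*, had at most 2 counts in any library.

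Of the 4 pharyngeal muscle markers matched, 3 were lower in *hpl-2*(*tm1489*), and their summed level was 91.6 to 106 CPM in *hpl-2*(*tm1489*) and 270 to 355 CPM in N2. The pharyngeal myosin gene *myo-2* fell by 4.27 on the log2 scale, while *tnc-2*, the pharyngeal troponin C gene, had no call. All 6 body wall muscle markers were lower as well, with a summed level of 1300 to 1910 CPM in *hpl-2*(*tm1489*) and 7980 to 13100 CPM in N2. Of the 17 panneuronal markers, 7 were lower, 1 was higher and 9 had no call. Thus 41.2% of them were lower and 47.1% called, against 27.6% and 61.5% of all genes tested. No marker of these 3 lists was at 0 counts in either strain. The part of these marker differences in the lower SIX-class, NK-2 and neuronal ceh genes was not tested.

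The other 7 genes that were lower came from 5 classes. *ceh-18*, the POU gene of the gonadal sheath cells that takes part in holding oocytes before maturation, was at 16.96, 15.00 and 16.94 CPM in *hpl-2*(*tm1489*) and at 35.65 and 41.18 CPM in N2, a log2 fold change of -1.24 (SE 0.26, adjusted p = 0.00293 by edgeR). It was the deepest counted of the lower genes, with at least 1547 counts in every library, and its groups lay well apart. *ceh-26*, the worm Prospero gene, was at 1.65, 1.73 and 1.30 CPM in *hpl-2*(*tm1489*) and at 6.35 and 5.15 CPM in N2 (log2 fold change -1.88, SE 0.30, adjusted p = 0.000725 by edgeR). *ceh-14*, a LIM homeobox gene of the Lhx3/4 group that acts in the AFD thermosensory and other neurons, was at 3.88, 3.39 and 3.57 CPM in *hpl-2*(*tm1489*) and at 7.56 and 8.17 CPM in N2 (log2 fold change -1.12, SE 0.27, adjusted p = 0.006 by edgeR). For all 3 genes the spread within each strain was small beside the gap between them.

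*ceh-31*, a BarH gene, was at 0.399, 0.431 and 0.318 CPM in *hpl-2*(*tm1489*) and at 1.12 and 1.47 CPM in N2, without overlap (log2 fold change -1.75, SE 0.40, adjusted p = 0.00525 by edgeR). The remaining falls rest on few counts or on single libraries. *ceh-23*, a gene of the AIY and CAN neurons among others, had 30, 8 and 8 counts in *hpl-2*(*tm1489*) and 28 and 35 counts in N2, and in CPM the mutant libraries still lay below N2 (log2 fold change -1.88, SE 0.67, adjusted p = 0.0366 by edgeR). Only 1 mutant library reached the filter's level, so *ceh-23* passed the filter through N2. The goosecoid homolog *ceh-45* had 39, 15 and 17 counts in *hpl-2*(*tm1489*) and 39 and 44 counts in N2 (log2 fold change -1.62, SE 0.55, adjusted p = 0.0315 by edgeR). Neither gene overlapped in CPM, and both calls were lost without N2 replicate 2, with log2 fold changes of -1.37 and -1.20 and adjusted p values of 0.182 and 0.156, and that of *ceh-23* also without mutant replicate 3 (adjusted p = 0.112). Without mutant replicate 1 the log2 fold change of *ceh-23* was -2.69 (adjusted p = 0.0156). The OTX gene *ceh-37*, which acts in AWB olfactory neurons and whose protein binds telomeric DNA, was at 4.15, 1.70 and 5.42 CPM in *hpl-2*(*tm1489*) and at 7.09 and 8.60 CPM in N2 (log2 fold change -1.06, SE 0.43, adjusted p = 0.0597 by edgeR). Its mutant libraries lay below N2 with replicate 2 far under the other 2, and the call was lost without N2 replicate 2 (adjusted p = 0.200) and under scaling by library size alone (adjusted p = 0.131).

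The 17 tested genes with no call had log2 fold changes between -0.85 and 0.95 and adjusted p values between 0.156 and 0.978. Besides *ceh-20*, *ceh-60* and 3 CUT genes they were *ceh-1*, *ceh-2*, *ceh-5*, *ceh-6*, *ceh-9*, *ceh-10*, *ceh-16*, *ceh-17*, *ceh-19*, *ceh-30*, *ceh-52* and *ceh-100*. In 5 of the 17 the strains did not overlap, namely *ceh-5* and *ceh-41*, which were above N2 in every mutant library, and *ceh-6*, *ceh-10* and *ceh-20*, which were below it. Lack of overlap was common here, at 72% of all genes tested, called or not. The POU gene *ceh-6*, which acts in the excretory canal cell, was at 2.13, 2.30 and 2.00 CPM in *hpl-2*(*tm1489*) and at 2.82 and 3.25 CPM in N2, a log2 fold change of -0.50 (SE 0.30, adjusted p = 0.183 by edgeR). Unlike its class mate *ceh-18* it therefore had no call, but the difference between the 2 POU genes was not tested. The BarH gene *ceh-30*, which protects the male CEM neurons from cell death, was at 0.610, 0.608 and 0.580 CPM in *hpl-2*(*tm1489*) and at 0.323 and 1.88 CPM in N2. The mutant libraries were almost equal and lay between the 2 N2 libraries, and the log2 fold change was -0.85 with all libraries, -1.64 and called without N2 replicate 1 (adjusted p = 0.00896 by edgeR) and 0.90 without N2 replicate 2.

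*ceh-100*, in none of the classes used here, was at 23.8, 9.74 and 31.4 CPM in *hpl-2*(*tm1489*) and at 27.2 and 36.9 CPM in N2, with overlap and no call (log2 fold change -0.57, SE 0.43, adjusted p = 0.291 by edgeR). Several genes with few counts were among those without a call. The VSX homolog *ceh-10*, which specifies the AIY interneurons, had 29, 30 and 12 counts in *hpl-2*(*tm1489*) and 25 and 17 counts in N2, and the PHOX2 homolog *ceh-17* had 12, 15 and 18 counts in *hpl-2*(*tm1489*) and 8 and 2 counts in N2. The engrailed homolog *ceh-16*, which acts in the seam cells, had 16, 20 and 15 counts in *hpl-2*(*tm1489*) and 25 and 4 counts in N2. Their differences had standard errors of 0.57, 0.79 and 0.70 on the log2 scale. Among the 38 tested genes, 17 had at most 150 counts in every library, and genes with and without a call were among them.

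Further genes of the group with *ceh-7*, *ceh-43*, *ceh-31* and *ceh-23*, which holds the ANTP-like genes outside NK-2, had no call either. *ceh-1*, an NK1-type gene, had 98, 87 and 55 counts in *hpl-2*(*tm1489*) and 25 and 49 counts in N2, and *ceh-9* had 108, 145 and 49 counts in *hpl-2*(*tm1489*) and 97 and 32 counts in N2. Their log2 fold changes of 0.25 (SE 0.52) and -0.03 (SE 0.49) were smaller than their errors. The VAX homolog *ceh-5* had 59, 52 and 38 counts in *hpl-2*(*tm1489*) and 14 and 19 counts in N2, without overlap in CPM but with a log2 fold change of 0.78 (SE 0.54, adjusted p = 0.245 by edgeR). The EMX homolog *ceh-2*, which acts in the pharynx, had 44, 51 and 27 counts in *hpl-2*(*tm1489*) and 18 counts in both N2 libraries, a log2 fold change of 0.39 (SE 0.54). *ceh-19*, which acts in the MC pharyngeal neurons, had 285, 327 and 143 counts in *hpl-2*(*tm1489*) and 150 and 77 counts in N2, with overlap in CPM and a log2 fold change of 0.43 (SE 0.37, adjusted p = 0.349 by edgeR). Of the 11 genes of this group that were tested, 2 were higher and 2 were lower.

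The 7 genes not tested were *ceh-8*, *ceh-12*, *ceh-28*, *ceh-36*, *ceh-51*, *ceh-53* and *ceh-90*, and none of them had more than 13 counts in any library. *ceh-8*, the RAX homolog, had 7, 8 and 10 counts in *hpl-2*(*tm1489*) and 0 and 1 counts in N2. The MNX homolog *ceh-12*, which acts in VB motor neurons, had 6, 13 and 9 counts in *hpl-2*(*tm1489*) and 2 and 0 counts in N2. Both were thus counted in every mutant library and hardly in N2. With 1 N2 library left out they passed the filter, and *ceh-12* was called without N2 replicate 1 (adjusted p = 0.0869 by edgeR) and *ceh-8* without N2 replicate 2 (adjusted p = 0.0667), while neither was called with no filter (adjusted p = 0.186 and 0.143). *ceh-36*, the OTX gene of the ASE and AWC neurons, had 5, 2 and 3 counts in *hpl-2*(*tm1489*) and 4 and 5 counts in N2. The paired-like gene *ceh-53* had 13, 1 and 8 counts in *hpl-2*(*tm1489*) and 6 and 3 counts in N2, with overlap. *ceh-28*, *ceh-51* and *ceh-90* never exceeded 3 counts in any library, so no difference was detectable for them.

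Several ceh genes lie side by side, and the genes next to them were read in the same fit. Gene order was read from RefSeq's annotation of WBcel235, in which 43 of the 45 ceh genes were found, and no coordinates are given because the counts use another build, WS220. *ceh-40* lies next to F17A2.13, which had 696, 889 and 671 counts in *hpl-2*(*tm1489*) and 0 counts in both N2 libraries, at least 148-fold higher (adjusted p = 2.53e-05 by edgeR). The gene on its other side, *xtr-2*, had 2, 0 and 0 counts in *hpl-2*(*tm1489*) and 3 and 0 counts in N2. The pair *ceh-40* and F17A2.13 was therefore counted in every mutant library and in neither N2 library. Both genes passed the filter through the mutant libraries alone, so their being higher is no separate result. *ceh-49* lies between F17A9.5, which was higher (log2 fold change 2.17, SE 0.31, adjusted p = 0.000416 by edgeR), and *ttn-1*, which was lower (log2 fold change -2.24, SE 0.30, adjusted p = 0.0003).

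The onecut genes *ceh-41* and *ceh-21* are adjacent, and T26C11.9 separates *ceh-21* from *ceh-39*. *ceh-41* was at 4.70, 5.43 and 5.40 CPM in *hpl-2*(*tm1489*) and at 2.97 and 4.37 CPM in N2, and *ceh-21* was at 4.55, 1.43 and 5.64 CPM in *hpl-2*(*tm1489*) and at 1.67 and 2.60 CPM in N2. Neither was called, with log2 fold changes of 0.50 (SE 0.30, adjusted p = 0.189 by edgeR) and 0.86 (SE 0.53, adjusted p = 0.192), and that of *ceh-21* was 1.17 and called without mutant replicate 2 (adjusted p = 0.0145). T26C11.9 had 63, 78 and 42 counts in *hpl-2*(*tm1489*) and 47 and 22 counts in N2, with a log2 fold change of 0.13 (SE 0.46). Of the genes in this stretch, *ceh-39* alone was called with all libraries.

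In other neighboring pairs the calls were alike or not. *ceh-34* and *ceh-33* are adjacent and both were lower, C10G8.8 on the far side of *ceh-33* had no call (log2 fold change 0.09, SE 0.33), and C10G8.2 next to *ceh-34* had 1 count in all. *ceh-31* was lower beside *ceh-30* and *twk-16*, which had no call. *ceh-27* was lower between T27F2.4, which was higher by 1.27 on the log2 scale, and F46F3.3, which fell by 3.21. Of the 11 tested neighbors of the 7 higher ceh genes, 5 were higher and 5 were lower, and of the 19 tested neighbors of the 14 lower ceh genes, 5 were higher and 7 were lower. These counts leave out neighbors that are themselves ceh genes, and of all genes tested 33.9% were higher and 27.6% lower.

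**Figure D3:**
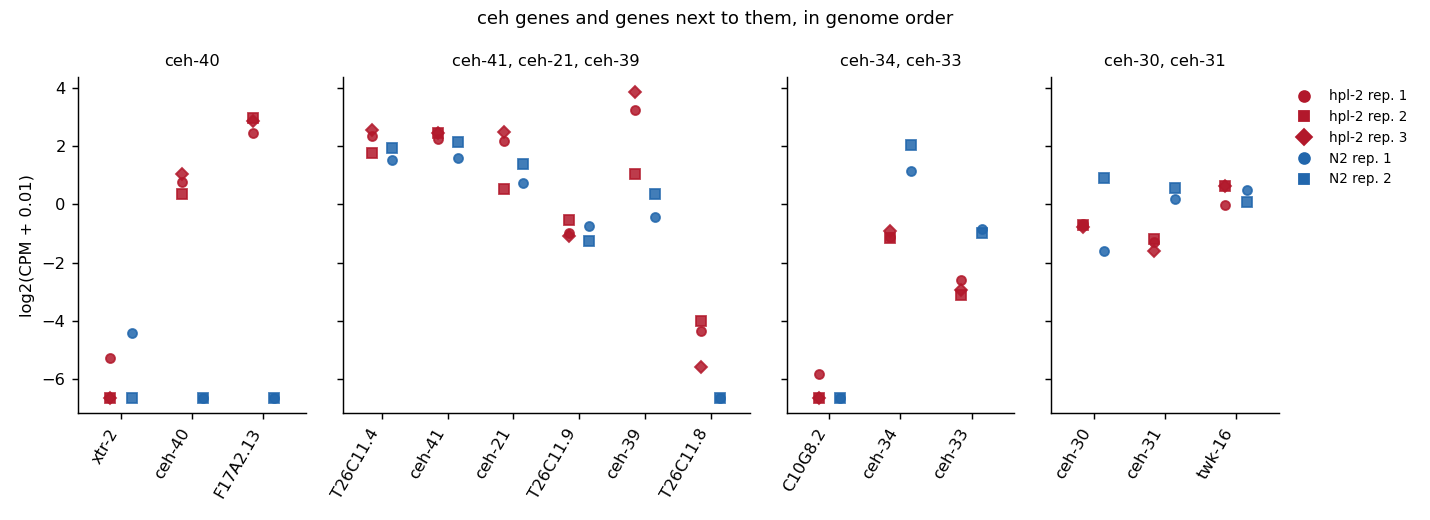
Levels of ceh genes and genes next to them at 4 places in the genome, as log2(CPM + 0.01), in genome order from left to right within a panel, with the 3 *hpl-2*(*tm1489*) libraries in red left of the 2 N2 libraries in blue. *ceh-40* and F17A2.13 are at 0 counts in both N2 libraries, *ceh-39* shows the widest gap between the strains in its panel among genes counted in N2, and *ceh-34* and *ceh-33* are both lower in the mutant.

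The mutant libraries did not read alike for every ceh gene. Relative to the mean CPM of replicates 1 and 3, replicate 2 of *hpl-2*(*tm1489*) had a median of 0.929 over the 38 tested ceh genes and 1.02 over all genes tested. It was under 0.5 for 6 ceh genes: *ceh-39* (0.174), *ceh-21* (0.280), *ceh-100* (0.353), *ceh-37* (0.355), *ceh-27* (0.419) and *ceh-23* (0.437). By contrast it was 1.08 for *ceh-41*, 0.891 for *ceh-44*, 0.710 for *ceh-49* and 0.677 for *ceh-40*. The 14 oocyte and eggshell markers were all under 0.5, with a median of 0.365, against 9.02% of all genes tested. Replicate 2 was therefore low for *ceh-39* and *ceh-21* in the same direction as for these markers, and the part of the markers in that was not tested. Without replicate 2, 25 of the 37 ceh genes then tested were called, 9 higher and 16 lower. These included all 21 called with every library and added *ceh-21*, *ceh-38*, *ceh-20* and *ceh-6*. Calls among all genes tested rose as well, to 11254 of 17110 in place of 10757 of 17498.

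**Figure D4:**
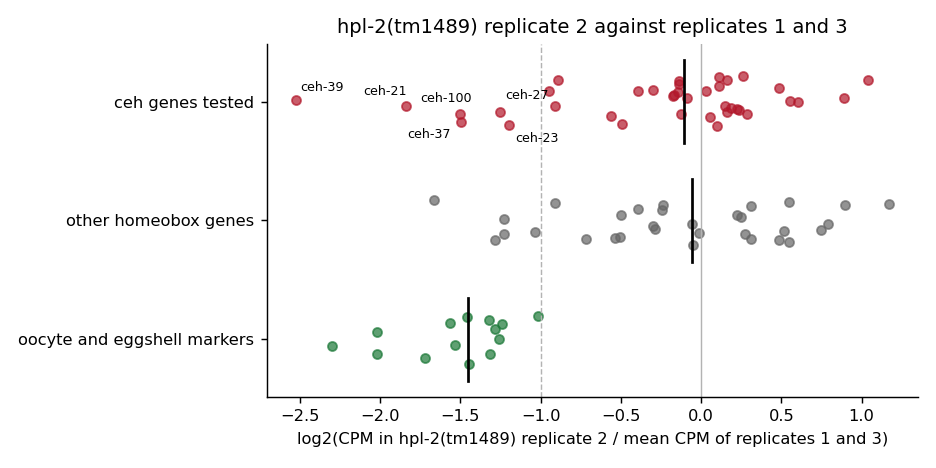
Level in *hpl-2*(*tm1489*) replicate 2 over the mean of replicates 1 and 3, as the log2 of the CPM ratio on the x axis, with 1 point per gene for 38 ceh genes, 31 genes listed as other homeobox genes and 14 oocyte and eggshell markers, and a black bar at each median. The dashed line marks a ratio of 0.5; 6 ceh genes, named in the plot, and all 14 oocyte and eggshell markers lie left of it.

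Homeobox genes with other names were read from a list of 34 outside the Hox cluster, of which 33 were matched and 31 tested. The list also holds *homt-1*, which is not a homeobox gene and was tested without a call (log2 fold change 0.53, SE 0.26, adjusted p = 0.112 by edgeR). Its unmatched entry, *pros-1*, is another name of *ceh-26*. Of the 31 tested, 3 were higher in *hpl-2*(*tm1489*), 20 were lower and 8, with *homt-1* among them, had no call. In this list 74.2% thus changed, against 61.5% of all genes tested, with a median log2 fold change of -1.21. The 3 largest falls were those of *lim-4*, *unc-42* and *vab-3*. *lim-4*, a LIM homeobox gene of the AWB and other head neurons, had 3, 4 and 11 counts in *hpl-2*(*tm1489*) and 53 and 24 counts in N2 (log2 fold change -3.26, SE 0.73, adjusted p = 0.0043 by edgeR). *unc-42*, which specifies command interneurons, had 9, 4 and 14 counts in *hpl-2*(*tm1489*) and 83 and 30 counts in N2 (log2 fold change -3.23, SE 0.66, adjusted p = 0.00265). *vab-3*, the worm Pax6 gene, had 127, 52 and 105 counts in *hpl-2*(*tm1489*) and 421 and 493 counts in N2 (log2 fold change -3.05, SE 0.43, adjusted p = 0.000374).

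The 3 that were higher were *pal-1*, *tab-1* and *nsy-7*. *pal-1*, the Caudal homolog that patterns the posterior embryo, had 10172, 9774 and 9088 counts in *hpl-2*(*tm1489*) and 1507 and 953 counts in N2 (log2 fold change 2.28, SE 0.28, adjusted p = 0.000183 by edgeR). Its groups were far apart and, unlike those of *ceh-39*, the 3 mutant libraries were close together. *tab-1* had 42, 48 and 25 counts in *hpl-2*(*tm1489*) and 14 and 4 counts in N2 (log2 fold change 1.41, SE 0.63, adjusted p = 0.0851), and *nsy-7*, which acts in the asymmetry of the AWC neurons, had 1435, 2254 and 1069 counts in *hpl-2*(*tm1489*) and 677 and 237 counts in N2 (log2 fold change 1.15, SE 0.38, adjusted p = 0.0284). The Meis/Homothorax homolog *unc-62*, chosen after its values were seen because its protein pairs with PBC proteins, had 2525, 1430 and 1973 counts in *hpl-2*(*tm1489*) and 4885 and 4115 counts in N2, a log2 fold change of -1.93 (SE 0.31, adjusted p = 0.000724 by edgeR). *unc-62* was thus lower where *ceh-40* was higher and *ceh-20* and *ceh-60* had no call. The other Meis-related gene on the list, *psa-3*, had no call (log2 fold change -0.39, SE 0.30, adjusted p = 0.291 by edgeR).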

How the data were processed

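Poly(A) RNA of whole animals was measured in 3 *hpl-2*(*tm1489*) and 2 N2 biological replicates, grouped by their labels. The authors trimmed the 3' ends of reads, removed short reads, aligned them to WS220 with TopHat2 (version 2.0.14) and used Rsubread to count the uniquely mapped reads on each WS220 gene. The deposited counts are raw and not normalized. The libraries were strand specific, but the methods do not say that counting used the strand, so reads of genes that overlap in antisense may be shared. Every row names a gene.

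From these counts, genes were filtered with filterByExpr (minimum count 10), scaled with TMM and fitted with the robust quasi-likelihood model of edgeR 4.0.16 in R 4.3.3 with genotype as the only term (common dispersion 0.0814). P-values were adjusted by the Benjamini-Hochberg method over 17498 genes, and SE is the absolute log2 fold change over the square root of F. CPM were computed on TMM-scaled library sizes. Where both N2 libraries were at or under 3 counts, the fold is a lower bound of the mean CPM against 3 counts per library, and such bounds cover counting error only. The procedure was tested on simulated counts.

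The ceh genes, the class and marker lists and the tests were chosen with earlier results of these data known. Any ceh gene could be named, with values in every library for those called (at most 12 in each direction by absolute log2 fold change), at the floor in 1 strain only, or in a class with these. Of the other homeobox genes, the 3 with the largest called change in each direction were named. *unc-62* and *psa-3* were named besides these, after their values were seen. Alternatives were DESeq2 1.42.0, other scalings, filters and thresholds, a replicate block and leaving out each library. The homeodomain comparison, the levels per coding length and the offsets by protein length were not run, as they need sequences that were not used here. The other assays of the study were not analyzed here, and the authors' table of fold changes and p-values was not used.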

Additional observations from a re-analysis of the deposited data

How the results depend on the processing

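Of the 21 changed ceh genes, 13 were called under every alternative that tested them (12 per gene), 8 lost the call under at least 1, and 0 changed direction; 9 of the 17 uncalled genes gained a call under at least 1. The number of ceh genes called was 21 with DESeq2 and with its size factors, 23 under upper quartile scaling and 20 under library size alone, 19 at an adjusted p under 0.05, and 19 to 25 when 1 library was left out. The median log2 fold change of the tested ceh genes ran from -0.53 to 0.13 when 1 library was left out, reaching 0.13 without N2 replicate 1, where 41 genes were tested. Scaling moved the median log2 fold change of all genes tested, which was 0.16 with TMM, -0.16 under upper quartile scaling and 0.41 under library size alone.

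Directions turned only among uncalled genes. *ceh-1* was at -0.06 under upper quartile scaling, and *ceh-9* at 0.21 under library size alone. *ceh-52* was at -0.02 with DESeq2's size factors, -0.27 under upper quartile scaling and -0.04 with no filter. With 1 library left out, *ceh-1* ran from -0.34 to 1.21, *ceh-9* from -0.48 to 0.59, *ceh-16* from -0.99 to 1.05, *ceh-30* from -1.64 to 0.90 and *ceh-52* from -0.53 to 1.31. The causes were not tested.

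Same-numbered replicates did not deviate together (correlations of -0.301 and -0.376 for numbers 1 and 2), so the numbers do not pair the libraries. With the replicate block, 15 ceh genes were called, 14 of them among the 21, and *ceh-9* was at 0.28. The calls of *ceh-23*, *ceh-24*, *ceh-33*, *ceh-43*, *ceh-44*, *ceh-45* and *ceh-48* were lost and *ceh-100* gained one. *ceh-33* was then at -2.01 (adjusted p = 0.124 by edgeR). On the list of other homeobox genes, 15 were called in place of 23. Calls among all genes tested fell likewise, to 7879 (45%) with the block, in place of 10757 (61.5%). *ceh-39* was at 2.19 with the block and called.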

Other observations

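A set of 20 further homeobox genes carries ceh numbers in the RefSeq table but sequence names in the counts, so the naming rule left it out. Of these, 13 were tested, 6 were higher in *hpl-2*(*tm1489*), 1 was lower and 6 had no call, with a median log2 fold change of 0.73. Of all genes tested, 33.9% were higher and 27.6% lower. F45C12.15 (*ceh-83*) had 1529, 654 and 1441 counts in *hpl-2*(*tm1489*) and 24 and 21 counts in N2, a log2 fold change of 5.03 (SE 0.53, adjusted p = 8.04e-05 by edgeR). F45C12.2 (*ceh-82*) had 141, 50 and 139 counts in *hpl-2*(*tm1489*) and 2 and 0 counts in N2, at least 22.0-fold higher against 3 counts per library (adjusted p = 0.000766 by edgeR). F45C12.2 passed the filter through the mutant libraries alone, so its being higher is no separate result. In F45C12.15 and F45C12.2, mutant replicate 2 was the lowest of the mutant libraries, as in *ceh-39*. ZC376.4 (*ceh-74*) had 1352, 2188 and 1157 counts in *hpl-2*(*tm1489*) and 152 and 74 counts in N2 (log2 fold change 3.11, SE 0.38, adjusted p = 0.000165), and there replicate 2 was the highest. The gene that was lower, C26E1.3 (*ceh-79*), had 442, 342 and 355 counts in *hpl-2*(*tm1489*) and 770 and 652 counts in N2 (log2 fold change -1.65, SE 0.28, adjusted p = 0.000939). Counted together with the 38 tested ceh genes, a set formed after the data were seen, 28 of 51 (54.9%) were called, against 61.5% of all genes tested.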
